A study of Mus musculus with 20 samples.

Results

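Fibrillar collagen is modified, folded and quality-checked in the endoplasmic reticulum (ER) before it is exported, trimmed and crosslinked outside the cell. The 40 genes described here encode that machinery and the ER stress response around it. They were selected by gene symbol and are 40 of the 27911 genes in the deposited table. By role they comprise 9 genes of collagen hydroxylation, 3 collagen chaperones, 4 genes of export and its control, 3 of propeptide removal, 5 of the lysyl oxidase family, 12 ER chaperones and related proteins, and 4 transcription factors of the unfolded protein response (UPR). All 40 were found once each and all passed the filter on low counts.

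The cells were ATDC5, a mouse chondrogenic cell line that is kept as undifferentiated mesenchymal cells and makes cartilage matrix when stimulated with insulin. Polyadenylated RNA was sequenced from Kmt2d+/+ clones named 10-5, 10-7 and 10-8 (clones 1, 2 and 3 here) and from Kmt2d-/- clones named 10-7 and 96-9 (clones 1 and 2). In the Kmt2d-/- clones both alleles lack the catalytic SET domain of KMT2D, a histone H3 lysine 4 methyltransferase. Each clone was taken at day 0, undifferentiated, and at day 7 of culture in chondrogenic medium, which added insulin, transferrin, selenium, ascorbic acid and beta-glycerophosphate to the serum-containing medium that all cells shared. This gave 3 libraries in each Kmt2d+/+ group and 2 in each Kmt2d-/- group. The study's design calls each clone a distinct clonal line, although the name 10-7 occurs in both genotypes and the labels do not say whether those lines are related. The p-values of the main fit measure the spread between clones of a group, and the genotype rests on 2 mutant lines. That fit treats the day 0 and day 7 libraries of a clone as independent, although they correlate, as given under the processing. Where a change over time was tested within clones, the p-values measure how far that change varied between clones. The labels do not say how many times a clone was cultured.

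As background, prolyl 4-hydroxylases modify prolines so that the collagen triple helix is stable at body temperature, and these enzymes need ascorbate, oxygen and iron. Lysyl hydroxylases and lysyl oxidases together set the type and number of crosslinks between collagen molecules. When unfolded protein accumulates in the ER, the sensors ATF6, IRE1 and PERK raise chaperone levels and slow protein synthesis, and cartilage cells, which secrete large amounts of collagen, are known to depend on this response.

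Libraries held 35792773 to 66237188 counts, and mitochondrial genes took 1.98% to 2.93% of them. Levels are given as CPM, counts per library scaled by TMM to a common size. Kmt2d stood at 211, 185 and 195 CPM (day 0) and 187, 173 and 207 CPM (day 7) in Kmt2d+/+, with 205 and 148 CPM (day 0) then 175 and 113 CPM (day 7) in Kmt2d-/-. These gene-level counts do not measure the deleted part of the transcript, so they do not check the genotype labels. The summed level of 9 chondrocyte markers was 45.1 to 404 CPM at day 0 and 583 to 1011 CPM at day 7 in Kmt2d+/+ clones, and 1958 to 6159.9 CPM and 26573 to 30619 CPM in Kmt2d-/- clones. The immune, endothelial and epithelial marker lists each summed to at most 11.9 CPM in any library. No gene of those 3 lists was at 0 in every library, and Ptprc, Cd68, Cdh5, Epcam, Krt8 and Krt18 were under 1 CPM in all of them. In bulk RNA of this kind, fewer cells of a type and less RNA per cell cannot be told apart.

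Levels within the group of 40 spanned a wide range. Per kilobase of merged exons and averaged over the 10 libraries, P4hb, the beta subunit of prolyl 4-hydroxylase and a protein disulfide isomerase, was the most abundant at 598 CPM per kb. Serpinh1, the collagen-specific chaperone HSP47, followed at 472 CPM per kb and Calr, the lectin chaperone calreticulin, at 390.0 CPM per kb. Hsp90b1 (GRP94) stood at 237, Fkbp10 at 224, Lox at 212, Pdia3 at 191, Pcolce at 176 and Hspa5 (BiP) at 174 CPM per kb. At the low end were Atf6 at 9.92, Dnajb9 at 8.20, P4ha3 at 3.72 and Loxl2 at 0.166 CPM per kb. Loxl2, a lysyl oxidase homologue, was between 0.275 and 1.99 CPM in every library, so its ratios rest on few counts. The order was not the same in every group: Lox was second in Kmt2d-/- at day 0, at 401 CPM per kb against 394 for Serpinh1, and 104 CPM per kb in Kmt2d+/+ at day 7, below Pdia3, Hspa5 and Pcolce.

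At day 7 most of the 40 genes stood higher in the Kmt2d-/- clones, with all 9 hydroxylation genes and 10 of 12 ER chaperones on that side, but 0 of the 40 passed the test across all genes. The nearest were Pdia3, a disulfide isomerase that works with calreticulin and calnexin, at 0.85 (SE 0.18, edgeR adjusted p = 0.0505) on the log2 scale, P4hb at 0.65 (SE 0.16, edgeR adjusted p = 0.0662) and Plod2, the lysyl hydroxylase of collagen telopeptides, at 0.95 (SE 0.26, edgeR adjusted p = 0.0936). In total 29 of the 40 had a positive difference, against 48.6% of all tested genes. The median difference of the 40 was 0.39, against -0.017 over all tested genes.

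The threshold was an adjusted p under 0.05 in edgeR's quasi-likelihood test, which called 1.87% of the 15467 genes tested (290 genes). At an unadjusted p under 0.05 it held 14 of the 40 genes, against 19.9% of all genes, 11 higher (8.95% of all genes) and 3 lower (11.0% of all genes). DESeq2 called 5 of the 40 (Pdia3, P4hb and Plod2 higher, Loxl1 and Atf6 lower) against 10.6% of all genes, and limma-voom called 1 (Pdia3) against 3.45%. limma-voom with the clone as a block called 0, against 2.86% of all genes. The values of both Kmt2d-/- clones lay above those of all 3 Kmt2d+/+ clones for 19 of the 40 genes (17.9% of all genes did so) and below them for 3 (19.8% of all genes). Without Kmt2d+/+ clone 2, Atf6 passed as lower in edgeR (adjusted p = 0.0463).

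Before differentiation, at day 0, the 40 genes divided evenly between the genotypes. 20 had a positive and 20 a negative difference, against 50.3% positive among all tested genes, and their median was 0.016, against 0.0059 over all tested genes. 0 of the 40 passed in edgeR, which called 2.15% of all genes (332 genes), and 7 had an unadjusted p under 0.05, against 20.2% of all genes. Of the 7, 3 were higher (10.3% of all genes) and 4 lower (9.98%). The largest positive difference was that of Creb3l1, a membrane-bound transcription factor that switches on secretory pathway genes when cleaved, at 1.65 (SE 0.38, edgeR adjusted p = 0.0576). The largest negative one was that of Loxl1, a crosslinking enzyme, at -2.31 (SE 0.75, edgeR adjusted p = 0.133).

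For the same day 0 contrast, DESeq2 called 4 genes (Creb3l1 and Dnajb9 higher, Loxl1 and Loxl2 lower) against 11.0% of all genes, and limma-voom called 0 against 1.72%, or against 1.25% with the clone as a block. The clones did not overlap for 6 genes higher in Kmt2d-/- (18.6% of all genes) and for 8 lower (18.3% of all genes). Single clones moved these calls, but without 1 Kmt2d-/- clone that arm holds 1 library, which is assumed to vary like the libraries of the other groups. On that footing, without Kmt2d-/- clone 2, Creb3l1 passed in edgeR (adjusted p = 0.0353). On the same footing, without Kmt2d-/- clone 1, Loxl1 (adjusted p = 0.0214) and Loxl3 (adjusted p = 0.032) passed as lower in edgeR.

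**Figure D1:**
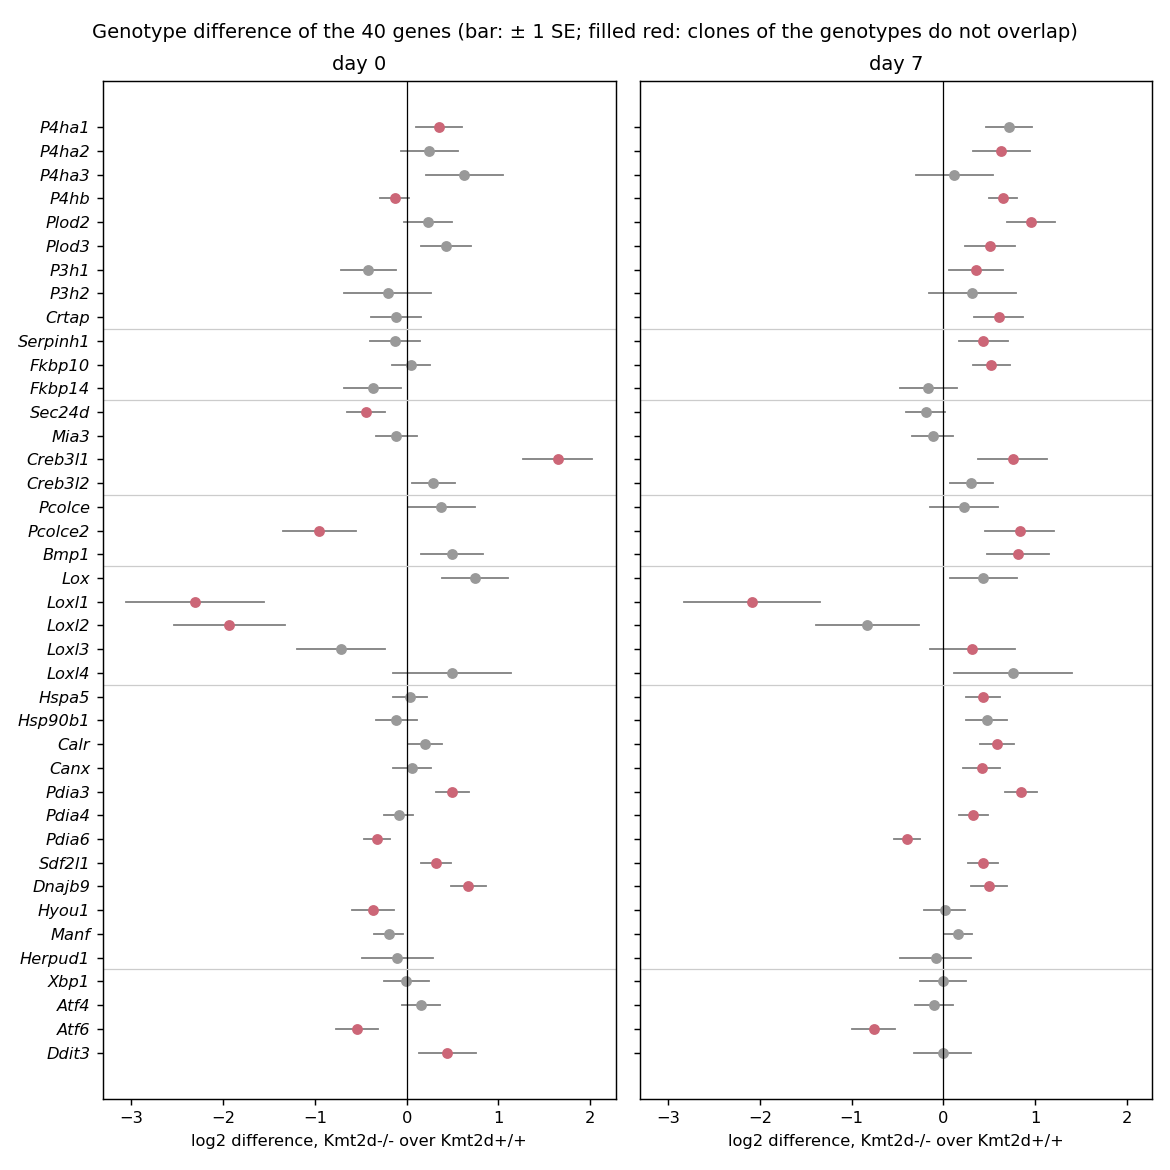
Log2 difference between Kmt2d-/- and Kmt2d+/+ clones (horizontal axis, points with bars of 1 SE, derived from the edgeR F statistic) for each of the 40 genes (rows, grouped by role) at day 0 and day 7, with red points where the clones of the genotypes do not overlap. At day 7, 29 of 40 points lie right of 0 and all 9 hydroxylation genes are among them, while at day 0 there are 20 on each side.

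From day 0 to day 7 the Kmt2d+/+ clones showed little common movement of these genes. 22 of the 40 had a positive change, against 51.9% of all tested genes, and the median change was 0.041, against 0.028 over all tested genes. 0 of the 40 passed in edgeR without the clone as a block, where 5.08% of all genes did (786 genes). At an unadjusted p under 0.05 there were 3, against 24.7% of all genes. Pdia4 and Sdf2l1 were higher (13.9% of all genes) and Lox lower (10.7%). DESeq2 called those 3 against 15.1% of all genes, and limma-voom called 0 against 5.08%.

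The same clones were sampled at both days, so the change can also be tested within clones. With the clone as a block, edgeR called 3 of the 40 in Kmt2d+/+ against 18.0% of all genes. Lox, the founding lysyl oxidase, fell by 1.23 on the log2 scale (adjusted p = 0.0139 in edgeR with the block). Pdia4, a multidomain disulfide isomerase, rose by 0.50 (adjusted p = 0.0371, edgeR) and Sdf2l1, a partner of BiP, by 0.59 (adjusted p = 0.0394, edgeR). Every Kmt2d+/+ clone moved up for 10 of the 40 genes (31.0% of all genes) and down for 6 (29.1%). Loxl3 passed as higher in edgeR without Kmt2d-/- clone 1 (adjusted p = 0.0408) and without Kmt2d-/- clone 2 (adjusted p = 0.0398).

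In the Kmt2d-/- clones the change over the same 7 days was mostly upward. 28 of the 40 genes had a positive change, against 49.4% of all tested genes, with a median of 0.38, against -0.003 over all tested genes. Pdia4 alone passed in edgeR without the block, rising 1.89-fold, a log2 change of 0.92 (SE 0.18, edgeR adjusted p = 0.0484), where 1.27% of all genes passed (196 genes). At an unadjusted p under 0.05 there were 13 of the 40, against 14.8% of all genes, 11 of them higher (7.84%) and 2 lower (6.93%). Both clones moved up for 23 of the 40 genes (34.2% of all genes) and down for 5 (33.4%).

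With the clone as a block, 5 of the 40 passed in the Kmt2d-/- clones, against 5.57% of all genes. Pdia4 rose by 0.92 (adjusted p = 0.0288, edgeR), P4hb by 0.85 (adjusted p = 0.0484, edgeR) and P3h1, the prolyl 3-hydroxylase, by 1.29 (adjusted p = 0.0413, edgeR). Pcolce2, an enhancer of procollagen C-proteinase, rose by 2.28 (adjusted p = 0.0366, edgeR), and Lox fell by 1.45 (adjusted p = 0.0261, edgeR).

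The Pdia4 call without the block was lost whenever 1 clone was left out. Its edgeR adjusted p was 0.0849, 0.0562 and 0.167 without Kmt2d+/+ clones 1, 2 and 3 in turn, and 0.31 and 0.397 without Kmt2d-/- clones 1 and 2, where 1 library is left at each day. It was also lost without the filter on low counts (adjusted p = 0.0548), where Pcolce2 passed instead in edgeR (adjusted p = 0.0371), in flow-cell run 2 alone (0.0786) and in a fit of only the 2 Kmt2d-/- groups (0.2). DESeq2 called 7 of the 40 (P4hb, P3h1, Pcolce2, Loxl3, Pdia4 and Sdf2l1 higher, Lox lower) against 6.75% of all genes, and limma-voom called 3 (P4hb, Pcolce2 and Pdia4) against 1.16%.

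A difference between the genotypes in the change over time was not shown for any of the 40. The test of that difference passed 0 of the 40 and 0% of all genes in edgeR, with or without the clone as a block, and limma-voom also called 0. DESeq2 called 0 of the 40 and 0.194% of all genes. At an unadjusted p under 0.05 there were 2 of the 40, both positive, against 3.67% of all genes (1.53% positive and 2.15% negative), and 29 of the 40 had a positive difference against 47.0% of all genes. Those 2 were P4hb, whose change was larger in Kmt2d-/- by 0.78 (SE 0.22), and Pcolce2, larger by 1.78 (SE 0.55). The genotype contrast at day 7 and the change in Kmt2d-/- clones share the same Kmt2d-/- day 7 libraries, so their common upward direction is not 2 separate results.

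Among the hydroxylation genes, P4hb (chromosome 11, 120560298 to 120573253, GRCm38) gave the clearest values. P4hb stood at 1529.9, 1517 and 1484 CPM (day 0) and 1738, 1544 and 1517 CPM (day 7) in Kmt2d+/+, with 1445 and 1318 CPM (day 0) then 2195 and 2827 CPM (day 7) in Kmt2d-/-. At day 7 both Kmt2d-/- clones were above every Kmt2d+/+ library of either day, and at day 0 both were below the Kmt2d+/+ clones. The catalytic alpha subunits were less clearly separated. P4ha1 stood at 209.6, 193 and 226 CPM (day 0) and 319, 231 and 230.3 CPM (day 7) in Kmt2d+/+, with 259.7 and 275 CPM (day 0) then 304 and 548 CPM (day 7) in Kmt2d-/-. P4ha1 was the most abundant alpha subunit per kilobase, at 68.0 CPM per kb against 19.2 for P4ha2 and 3.72 for P4ha3, and its day 7 difference was 0.71 (SE 0.25, edgeR adjusted p = 0.16), with one Kmt2d-/- clone inside the Kmt2d+/+ range. P4ha2 differed at day 7 by 0.63 (SE 0.31, edgeR adjusted p = 0.302) without overlap and P4ha3 by 0.12 (SE 0.42, edgeR adjusted p = 0.916) with overlap.

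Of the lysyl hydroxylases, Plod2 (chromosome 9, 92542223 to 92608428) makes the telopeptide hydroxylysines that give stable crosslinks, and Plod3 also adds the sugars to hydroxylysine. Plod2 stood at 337, 326 and 241 CPM (day 0) and 349, 292 and 230.0 CPM (day 7) in Kmt2d+/+, with 437 and 270.0 CPM (day 0) then 618 and 505 CPM (day 7) in Kmt2d-/-. The genotypes did not overlap at day 7 and did at day 0, and the Plod2 difference at day 7 had the largest size among the 9 hydroxylation genes. At day 7 Plod3 measured 308, 403 and 262 CPM in Kmt2d+/+ against 463 and 458 CPM in Kmt2d-/-, again without overlap, a difference of 0.50 (SE 0.27, edgeR adjusted p = 0.349).

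P3h1 and Crtap encode the complex that 3-hydroxylates a proline in collagen chains, and P3h2 is a related enzyme. P3h1 stood at 129.8, 236 and 151 CPM (day 0) and 239, 271 and 199.6 CPM (day 7) in Kmt2d+/+, with 161 and 95.8 CPM (day 0) then 297 and 309 CPM (day 7) in Kmt2d-/-. The lowest values of this gene were those of Kmt2d-/- clone 2 at day 0 and the highest those of both Kmt2d-/- clones at day 7. At day 7 Crtap measured 117, 177 and 108 CPM in Kmt2d+/+ against 227 and 179.5 CPM in Kmt2d-/-, without overlap (0.60, SE 0.27, edgeR adjusted p = 0.251). P3h2 ranged from 26.2 to 103 CPM, and its genotype groups overlapped at both days (0.32, SE 0.47, edgeR adjusted p = 0.772 at day 7).

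**Figure D2:**
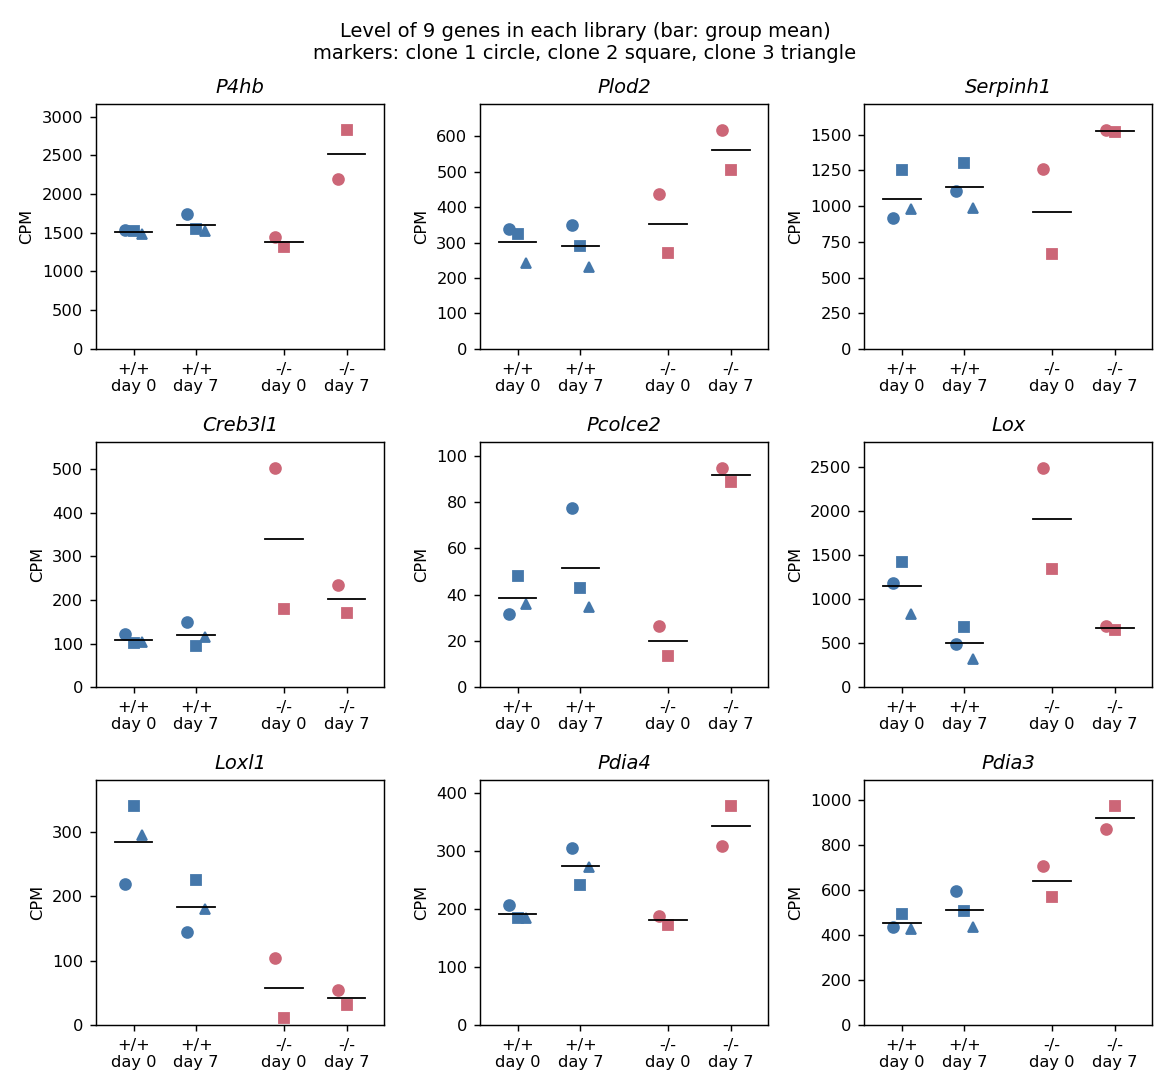
CPM (vertical axis, linear, from 0) of 9 genes in each of the 10 libraries, by genotype and day, with circles, squares and triangles for clones 1, 2 and 3 and a bar for the group mean. P4hb, Plod2 and Pdia3 stand highest in the 2 Kmt2d-/- clones at day 7, Lox is lower at day 7 than at day 0 in every clone, and Loxl1 is lower in every Kmt2d-/- library than in any Kmt2d+/+ library.

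Of the 3 collagen chaperones, 2 stood higher in Kmt2d-/- at day 7 without overlap (17.9% of all genes did so), and 0 passed. Serpinh1 stood at 920.0, 1257 and 980.2 CPM (day 0) and 1104, 1304 and 989.6 CPM (day 7) in Kmt2d+/+, with 1261 and 663 CPM (day 0) then 1534 and 1522 CPM (day 7) in Kmt2d-/-. Kmt2d-/- clone 2 held the lowest Serpinh1 value at day 0, and both Kmt2d-/- clones held the highest values at day 7, without overlap, although the difference of 0.43 (SE 0.27, edgeR adjusted p = 0.414) did not pass. Fkbp10, an ER prolyl isomerase that acts on procollagen and on lysyl hydroxylase 2, differed at day 7 by 0.52 (SE 0.20, edgeR adjusted p = 0.202), also without overlap. Fkbp14, another prolyl isomerase of the ER, was 55.3 to 175 CPM across libraries and differed by -0.17 (SE 0.31, edgeR adjusted p = 0.826), with overlap. Among these 3 genes Fkbp14 had the largest day 0 difference, at -0.37 (SE 0.31, edgeR adjusted p = 0.55).

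Export of procollagen needs large COPII carriers, for which Sec24d is a cargo adaptor and Mia3 (TANGO1) the procollagen receptor, while Creb3l1 and Creb3l2 are transcription factors for secretory genes. Creb3l1 stood at 122, 101 and 104 CPM (day 0) and 149, 95.4 and 116 CPM (day 7) in Kmt2d+/+, with 502 and 179 CPM (day 0) then 234 and 171 CPM (day 7) in Kmt2d-/-. All 4 Kmt2d-/- values were above all 6 Kmt2d+/+ values, and Kmt2d-/- clone 1 at day 0 stood far above its partner clone. Creb3l2 differed at day 7 by 0.31 (SE 0.23, edgeR adjusted p = 0.522), with overlap. At day 0 Sec24d measured 186, 165 and 158 CPM in Kmt2d+/+ against 134 and 116 CPM in Kmt2d-/-, without overlap, a difference of -0.44 (SE 0.21, edgeR adjusted p = 0.277) that was -0.19 at day 7. Mia3 was 88.5 to 145 CPM across libraries, and the 95% interval of its day 7 difference was -0.66 to 0.43. In the edgeR fit of all 10 libraries, 0 of these 4 genes passed in any of the 5 comparisons, and Creb3l1 passed at day 0 in DESeq2 and without Kmt2d-/- clone 2, as given above.

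Propeptide removal is carried out by Bmp1, the procollagen C-proteinase, with Pcolce and Pcolce2 as enhancers. Pcolce2 stood at 31.8, 48.3 and 35.9 CPM (day 0) and 77.4, 42.7 and 34.5 CPM (day 7) in Kmt2d+/+, with 26.5 and 13.4 CPM (day 0) then 94.7 and 88.6 CPM (day 7) in Kmt2d-/-. Both Kmt2d-/- clones were below all Kmt2d+/+ values at day 0 and above all of them at day 7, and the change within Kmt2d-/- was 2.20 (SE 0.44, edgeR adjusted p = 0.0537), larger than that of any other of the 40 genes in that contrast. At day 7 Bmp1 measured 102, 47.8 and 70.6 CPM in Kmt2d+/+ against 152 and 106 CPM in Kmt2d-/-, without overlap (0.81, SE 0.34, edgeR adjusted p = 0.226). Pcolce, the most abundant of these 3 per kilobase, was 467 to 1080.5 CPM across libraries, and its groups overlapped at both days (0.23, SE 0.37, edgeR adjusted p = 0.795 at day 7).

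The lysyl oxidase family did not move as 1 group. Lox stood at 1180.5, 1429 and 828 CPM (day 0) and 492, 682 and 319 CPM (day 7) in Kmt2d+/+, with 2491 and 1344 CPM (day 0) then 695 and 650.3 CPM (day 7) in Kmt2d-/-. Lox was lower at day 7 than at day 0 in each of the 5 clones, by 1.26, 1.07 and 1.38 on the log2 scale in Kmt2d+/+ clones 1 to 3 and by 1.84 and 1.05 in Kmt2d-/- clones 1 and 2. Its genotype difference was 0.74 (SE 0.36, edgeR adjusted p = 0.287) at day 0 and 0.43 (SE 0.36, edgeR adjusted p = 0.563) at day 7, with overlap at both days.

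Loxl1, which also crosslinks elastin, went the other way between genotypes. Loxl1 stood at 219, 339 and 295 CPM (day 0) and 144, 225 and 180.0 CPM (day 7) in Kmt2d+/+, with 104 and 11.4 CPM (day 0) then 54.2 and 32.0 CPM (day 7) in Kmt2d-/-. The 4 Kmt2d-/- values lay below the 6 Kmt2d+/+ values, yet the difference of -2.09 (SE 0.74, edgeR adjusted p = 0.168) at day 7 did not pass, and Kmt2d-/- clones 1 and 2 differed widely from each other at day 0. Loxl2 was low throughout, and its day 0 difference was -1.93 (SE 0.60, edgeR adjusted p = 0.121).

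Loxl3 and Loxl4, 2 further lysyl oxidase homologues, had higher means at day 7 in both genotypes. Loxl3 stood at 41.5, 44.2 and 48.2 CPM (day 0) and 87.3, 83.2 and 68.8 CPM (day 7) in Kmt2d+/+, with 44.4 and 9.93 CPM (day 0) then 95.8 and 103 CPM (day 7) in Kmt2d-/-. Each of the 5 clones had a higher Loxl3 value at day 7 than at day 0, and the change was 1.87 (SE 0.53, edgeR adjusted p = 0.135) in Kmt2d-/- and 0.84 (SE 0.42, edgeR adjusted p = 0.258) in Kmt2d+/+. Loxl4 stood at 103, 121 and 115 CPM (day 0) and 408, 92.2 and 86.8 CPM (day 7) in Kmt2d+/+, with 216 and 101 CPM (day 0) then 240.0 and 422 CPM (day 7) in Kmt2d-/-. In Loxl4 the change in Kmt2d+/+ clones came from clone 1, while clones 2 and 3 were lower at day 7 than at day 0.

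The ER chaperones include the targets by which the UPR is usually read, and the promoters of several are known to hold the ER stress response element (ERSE), to which ATF6 binds with NF-Y. The RefSeq promoter table (GRCm38.p6) held 28 of the 40 genes. It did not hold Plod2, P3h2, Fkbp10, Creb3l1, Bmp1, Lox, Loxl1, Loxl2, Loxl3, Hyou1, Manf and Atf6. In windows of 250 bases before to 50 bases after the start, ERSE (CCAAT, any 9 bases, then CCACG) was found in 5 of the 28 genes, Calr, Canx, Hsp90b1, Hspa5 and Pdia6, against 0.137% of the 27025 genes in the table. ERSE-II (ATTGG, any base, then CCACG) and the CARE sequence (TTGCATCA), which ATF4 with C/EBP binds, were both found in Herpud1, against 0.0444% and 1.03% of all genes. The UPRE sequence (TGACGTGG) was found in Sec24d, against 0.714% of all genes. Motifs were searched on both strands, and a match describes letters and not binding. The 5 ERSE promoters and that of Pdia4, which held none of the 4 motifs, are shown because the chaperone values below can be read against them. Each is the 250 bases before the start, 5′ to 3′ on the gene's strand, and capitals mark the fixed letters of ERSE, with CGTGG and ATTGG where the match is on the opposite strand. They lie at chr8:84846932-84847181 (minus strand), chr11:50325674-50325923 (minus strand), chr10:86705445-86705694 (minus strand), chr2:34771840-34772089 (plus strand), chr12:17266339-17266588 (plus strand) and chr6:47813513-47813762 (minus strand).
Calr: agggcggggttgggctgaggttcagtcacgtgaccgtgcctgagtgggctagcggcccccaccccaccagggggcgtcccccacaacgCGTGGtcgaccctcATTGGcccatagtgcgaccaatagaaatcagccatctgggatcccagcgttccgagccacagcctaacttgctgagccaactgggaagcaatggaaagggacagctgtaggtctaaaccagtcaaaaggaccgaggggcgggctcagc
Canx: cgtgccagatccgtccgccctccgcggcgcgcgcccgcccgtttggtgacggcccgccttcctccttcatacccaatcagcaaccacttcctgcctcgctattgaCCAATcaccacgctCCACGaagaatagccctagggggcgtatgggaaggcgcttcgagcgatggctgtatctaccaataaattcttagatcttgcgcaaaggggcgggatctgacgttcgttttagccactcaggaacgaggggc
Hsp90b1: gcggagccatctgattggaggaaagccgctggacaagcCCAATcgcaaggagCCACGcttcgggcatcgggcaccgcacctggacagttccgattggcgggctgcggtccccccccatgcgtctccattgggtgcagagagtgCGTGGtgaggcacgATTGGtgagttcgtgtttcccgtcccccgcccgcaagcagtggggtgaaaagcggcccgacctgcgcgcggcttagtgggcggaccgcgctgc
Hspa5: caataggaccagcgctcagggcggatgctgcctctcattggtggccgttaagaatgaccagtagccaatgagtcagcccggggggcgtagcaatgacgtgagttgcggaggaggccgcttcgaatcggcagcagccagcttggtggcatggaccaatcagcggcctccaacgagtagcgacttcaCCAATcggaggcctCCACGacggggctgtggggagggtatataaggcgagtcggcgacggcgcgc
Pdia6: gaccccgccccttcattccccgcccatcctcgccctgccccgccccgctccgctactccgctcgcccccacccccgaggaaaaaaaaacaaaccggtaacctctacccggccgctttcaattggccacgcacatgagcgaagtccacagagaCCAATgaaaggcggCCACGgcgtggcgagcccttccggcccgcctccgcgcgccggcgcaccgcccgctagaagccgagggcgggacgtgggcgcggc
Pdia4: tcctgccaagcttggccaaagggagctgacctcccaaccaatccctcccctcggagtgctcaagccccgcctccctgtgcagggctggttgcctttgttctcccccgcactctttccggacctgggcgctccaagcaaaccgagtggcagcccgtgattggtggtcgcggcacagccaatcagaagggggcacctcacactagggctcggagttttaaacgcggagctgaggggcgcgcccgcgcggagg

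In Hspa5 the element lay -65 to -47 bases from the start, and Hsp90b1 held 2, at -212 to -194 and on the opposite strand at -107 to -89. The elements of Calr, on the opposite strand, Canx and Pdia6 lay at -162 to -144, -145 to -127 and -98 to -80. Of the 5 genes with the element, 4 had a positive difference between genotypes at day 7 and Pdia6 a negative one. Of all 12 ER chaperones, with or without the element, 10 were positive, against 48.6% of all tested genes. The part of the element in these differences was not tested. Hspa5 stood at 719.8, 729 and 639 CPM (day 0) and 756, 699 and 581 CPM (day 7) in Kmt2d+/+, with 799 and 628 CPM (day 0) then 802 and 1024 CPM (day 7) in Kmt2d-/-. Hspa5 encodes BiP, the main ER HSP70, and its day 7 difference was 0.43 (SE 0.19, edgeR adjusted p = 0.243), without overlap. The differences of Calr, 0.59 (SE 0.19, edgeR adjusted p = 0.131), and Canx, 0.42 (SE 0.20, edgeR adjusted p = 0.298), both lectin chaperones, were also positive without overlap, and that of Hsp90b1 was 0.47 (SE 0.22, edgeR adjusted p = 0.278) with overlap. Pdia6, a disulfide isomerase that binds BiP, had a difference of -0.40 (SE 0.14, edgeR adjusted p = 0.163) with both Kmt2d-/- clones below all Kmt2d+/+ clones, and this became -0.023 when the level of its neighbouring genes was subtracted, as described below. At day 7 that neighbouring level, in Kmt2d-/- clones 1 and 2, was 0.25 and 0.30 around Hspa5 and 0.30 and 0.21 around Canx. It was 0.064 and 0.14 around Calr and -0.029 and 0.32 around Hsp90b1.

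Pdia4 (chromosome 6, 47796141 to 47813430), without the element in its window, was the chaperone that passed over time in Kmt2d-/-. Pdia4 stood at 206, 184 and 185 CPM (day 0) and 305, 241 and 273 CPM (day 7) in Kmt2d+/+, with 188 and 173 CPM (day 0) then 308 and 376 CPM (day 7) in Kmt2d-/-. Every clone was higher at day 7 than its own day 0 value, and the genotypes did not overlap at day 7, where the difference was 0.32 (SE 0.16, edgeR adjusted p = 0.297). Sdf2l1 stood at 22.2, 21.0 and 23.0 CPM (day 0) and 30.9, 37.7 and 31.4 CPM (day 7) in Kmt2d+/+, with 28.5 and 26.5 CPM (day 0) then 40.4 and 49.4 CPM (day 7) in Kmt2d-/-. Sdf2l1 was likewise higher at day 7 in each of the 5 clones, with a change of 0.60 (SE 0.15, edgeR adjusted p = 0.0547) in Kmt2d+/+ and 0.71 (SE 0.18, edgeR adjusted p = 0.109) in Kmt2d-/-.

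Among the other disulfide isomerases and cochaperones, Pdia3 stood apart between genotypes at both days. Pdia3 stood at 436, 494 and 426 CPM (day 0) and 594, 507 and 434 CPM (day 7) in Kmt2d+/+, with 706 and 570.3 CPM (day 0) then 871 and 971 CPM (day 7) in Kmt2d-/-. The difference was 0.50 (SE 0.18, edgeR adjusted p = 0.162) at day 0 and 0.85 (SE 0.18, edgeR adjusted p = 0.0505) at day 7, without overlap at either. Dnajb9 stood at 20.0, 17.3 and 15.0 CPM (day 0) and 18.4, 18.4 and 15.3 CPM (day 7) in Kmt2d+/+, with 29.3 and 26.2 CPM (day 0) then 26.3 and 22.7 CPM (day 7) in Kmt2d-/-. Dnajb9, a BiP cochaperone also called ERdj4, differed by 0.67 (SE 0.19, edgeR adjusted p = 0.0948) at day 0 and 0.50 (SE 0.19, edgeR adjusted p = 0.197) at day 7, also without overlap.

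Hyou1, the nucleotide exchange factor of BiP, was 183 and 329 CPM in the Kmt2d-/- clones at day 7, on both sides of the Kmt2d+/+ clones at 263, 259 and 237 CPM. Manf, a secreted ER stress protein, was 121 to 170.3 CPM and Herpud1, a component of ER-associated degradation, 116 to 259 CPM across libraries, with 95% intervals of the day 7 difference of -0.22 to 0.53 and -1.03 to 0.86. Herpud1, whose window held both ERSE-II and CARE, thus showed no detectable genotype difference at this spread.

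Of the 4 UPR transcription factors, only Atf6 had a point estimate far from 0 at day 7. Those of Atf4, Ddit3 and Xbp1 were -0.10, -0.0089 and -0.0043. Atf6 stood at 133, 98.6 and 132 CPM (day 0) and 111, 68.5 and 97.5 CPM (day 7) in Kmt2d+/+, with 90.6 and 76.1 CPM (day 0) then 51.2 and 57.8 CPM (day 7) in Kmt2d-/-. Atf6, the ER-anchored sensor that is cleaved into a transcription factor, was below the Kmt2d+/+ clones without overlap at both days (-0.54, SE 0.23, edgeR adjusted p = 0.235 at day 0 and -0.76 (SE 0.23, edgeR adjusted p = 0.123) at day 7). Atf4, the translation-controlled factor of the PERK arm and the most abundant of the 4 per kilobase, was 292 to 432 CPM across libraries, with a 95% interval of -0.60 to 0.40 at day 7. Xbp1, whose messenger RNA is spliced by IRE1, had an interval of -0.61 to 0.60 at day 7, and gene counts do not measure that splice form. Ddit3 (CHOP) was 20.1 and 42.4 CPM in the Kmt2d-/- clones at day 7, on both sides of the Kmt2d+/+ clones at 23.5, 37.5 and 33.3 CPM, and differed at day 0 by 0.44 (SE 0.31, edgeR adjusted p = 0.463), without overlap.

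Individual clones differed in how many of the 40 genes stood higher at day 7 than at day 0. In Kmt2d-/- clone 2 it was 35 of 40 (87.5%, against 49.1% of all tested genes in that clone), with a median log2 change of 0.68. In Kmt2d-/- clone 1 it was 23 of 40 (57.5% against 51.7%), with a median of 0.12. Kmt2d+/+ clone 1 had 29 of 40 (72.5% against 51.6%) and a median of 0.13, clone 2 had 18 of 40 (45% against 49.8%) and a median of -0.061, and clone 3 had 19 of 40 (47.5% against 51.5%) and a median of -0.021. These are single pairs of libraries with no test, and the median of the Kmt2d-/- contrast given above is thus carried largely by clone 2. In P4hb, for example, the change was 0.60 in Kmt2d-/- clone 1 and 1.10 in clone 2, and in Serpinh1 it was 0.28 and 1.20.

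**Figure D3:**
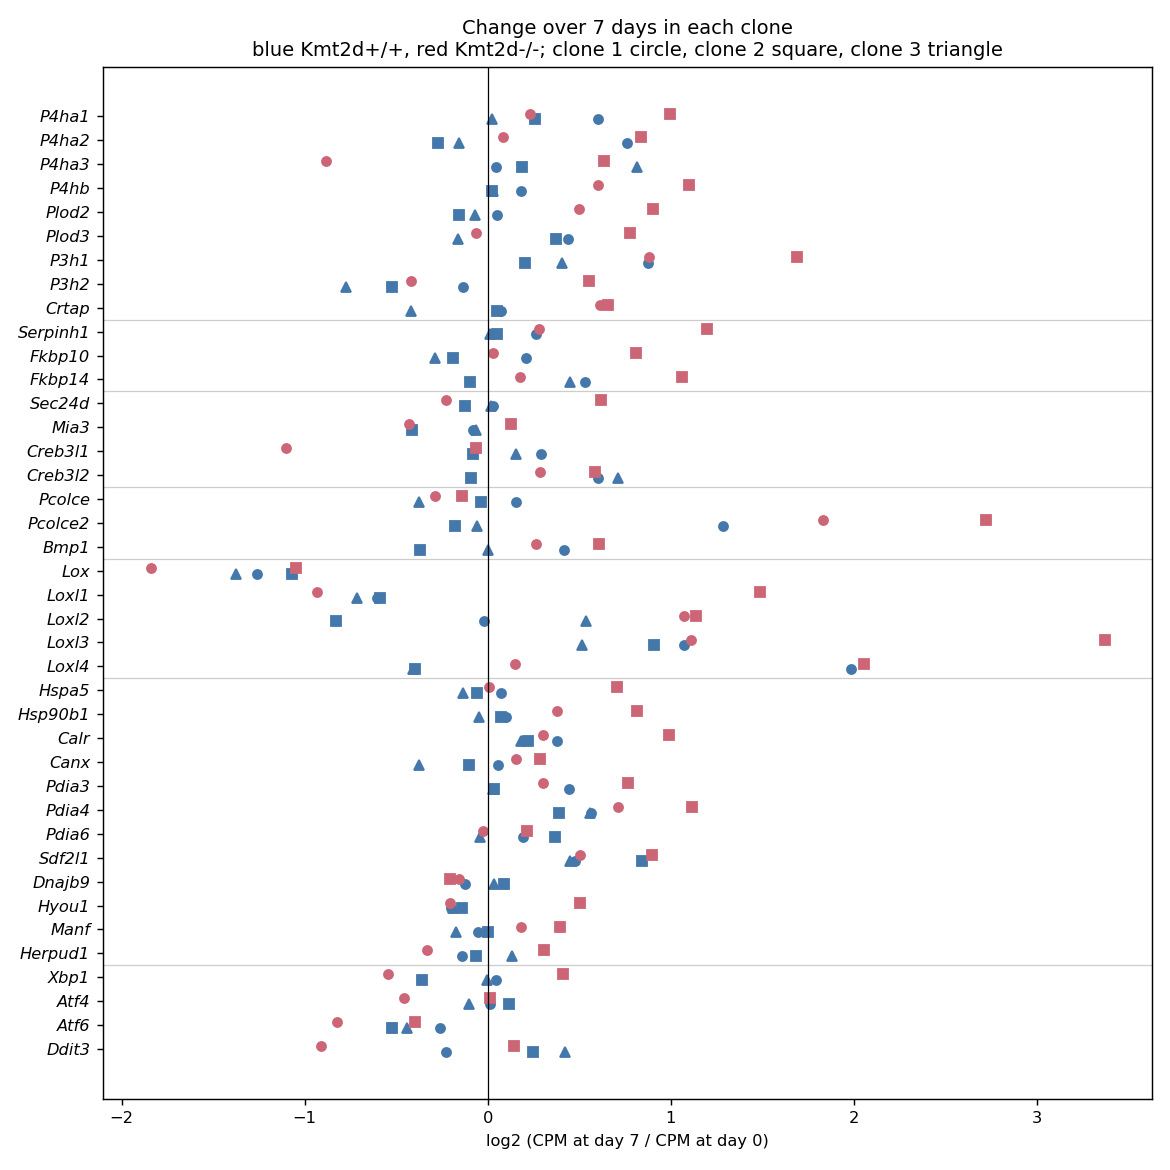
Log2 ratio of day 7 to day 0 CPM (horizontal axis) for the 40 genes (rows) in each of the 5 clones, with 1 point per gene and clone. Colour and marker give the clone. The points of Kmt2d-/- clone 2 lie mostly right of 0 (35 of 40, median 0.68), while the medians of the other 4 clones, not drawn, are between -0.061 and 0.13.

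The collagens that this machinery serves were also measured in the same libraries. Col1a1 stood at 9036, 11979 and 9787 CPM (day 0) and 14156, 10032 and 10214 CPM (day 7) in Kmt2d+/+, with 29756 and 7809.9 CPM (day 0) then 21761 and 12077 CPM (day 7) in Kmt2d-/-, and it encodes a chain of type I collagen. Col2a1 stood at 2.72, 34.4 and 8.66 CPM (day 0) and 332, 126 and 253 CPM (day 7) in Kmt2d+/+, with 2533 and 806 CPM (day 0) then 20471 and 24450.5 CPM (day 7) in Kmt2d-/-. Col2a1, the cartilage collagen, was higher in Kmt2d-/- by 6.77 (SE 1.03, edgeR adjusted p = 0.023) at day 0 and 6.57 (SE 1.02, edgeR adjusted p = 0.0252) at day 7. Both calls were lost in edgeR when a clone was left out, except for Kmt2d+/+ clone 2. With Kmt2d+/+ clones 1 to 3 and then Kmt2d-/- clones 1 and 2 omitted in turn, the adjusted p was 0.0759, 0.0134, 0.19, 0.0899 and 0.0817 at day 0 and 0.0523, 0.0264, 0.179, 0.0926 and 0.0755 at day 7. Of the 25 collagen genes measured, Col18a1, a basement membrane collagen, also passed at day 7 as lower, with a difference of -4.61 (SE 0.78, edgeR adjusted p = 0.0332), with adjusted p-values of 0.0685, 0.0244, 0.179, 0.161 and 0.0935 under the same omissions in edgeR. Over time, Col2a1 (3.95, SE 0.89, edgeR adjusted p = 0.0423) and Col9a1, a chain of cartilage type IX collagen (5.79, SE 1.10, edgeR adjusted p = 0.0276), rose in Kmt2d+/+. Under the same omissions their edgeR adjusted p-values were 0.168, 0.0213, 0.312, 0.0699 and 0.0709 and 0.142, 0.0371, 0.238, 0.0463 and 0.047. Of the 25, 0 passed over time in Kmt2d-/-, where 7 had an unadjusted p under 0.05 in edgeR (14.8% of all genes), DESeq2 called 6 (6.75%), limma-voom 4 (1.16%) and edgeR with the clone as a block 5 (5.57%). Col10a1, the collagen of hypertrophic chondrocytes, was 3.75 to 162 CPM across libraries and did not pass between genotypes at day 7 (1.41, SE 0.81, edgeR adjusted p = 0.382).

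Summed over 25 collagen genes, the Kmt2d+/+ libraries held 33457 to 47704 CPM. Kmt2d-/- clone 1 held 92853 CPM at day 0 and 86614 CPM at day 7, and clone 2 held 37422 CPM and 75009.8 CPM. The 24 hydroxylation, chaperone, export, propeptide and crosslinking genes summed to 6141.5 to 8358 CPM in Kmt2d+/+ libraries, to 10343 and 9642 CPM in Kmt2d-/- clone 1 and to 6382 and 10215 CPM in clone 2, at day 0 and day 7. Thus the machinery stood highest in the 3 Kmt2d-/- libraries whose collagen sum was also highest, and Kmt2d-/- clone 2 at day 0 lay within the Kmt2d+/+ range on both. Per 1000 CPM of collagen, the machinery came to 162 to 224 CPM in Kmt2d+/+ libraries, to 111.4 and 111.3 CPM in Kmt2d-/- clone 1, and to 171 and 136 CPM in clone 2. The part of collagen load in the genotype differences of the 40 genes was not tested. Chondrocyte markers moved with the same groups. At day 7, 2 of 9 (Col2a1 and Matn3) passed as higher in Kmt2d-/- in edgeR, where 1.87% of all genes passed in either direction. All 9 were higher without overlap (17.9% of all genes), and their sum, given above, was highest in the Kmt2d-/- libraries of day 7. Myofibroblast markers summed to 2769 to 3513 CPM in Kmt2d+/+ and 776 to 1026 CPM in Kmt2d-/- clones at day 7, and osteoblast markers to 327 to 1109.5 CPM and 595 to 673 CPM. Of the 6 osteoblast markers, 4 were lower and 2 higher in Kmt2d-/- at day 7, and 0 passed in edgeR. Over time, 5 of the 6 passed as higher in Kmt2d+/+ (5.08% of all genes in either direction) and 2 in Kmt2d-/- (1.27%). The part of these markers in the results was not tested either.

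**Figure D4:**
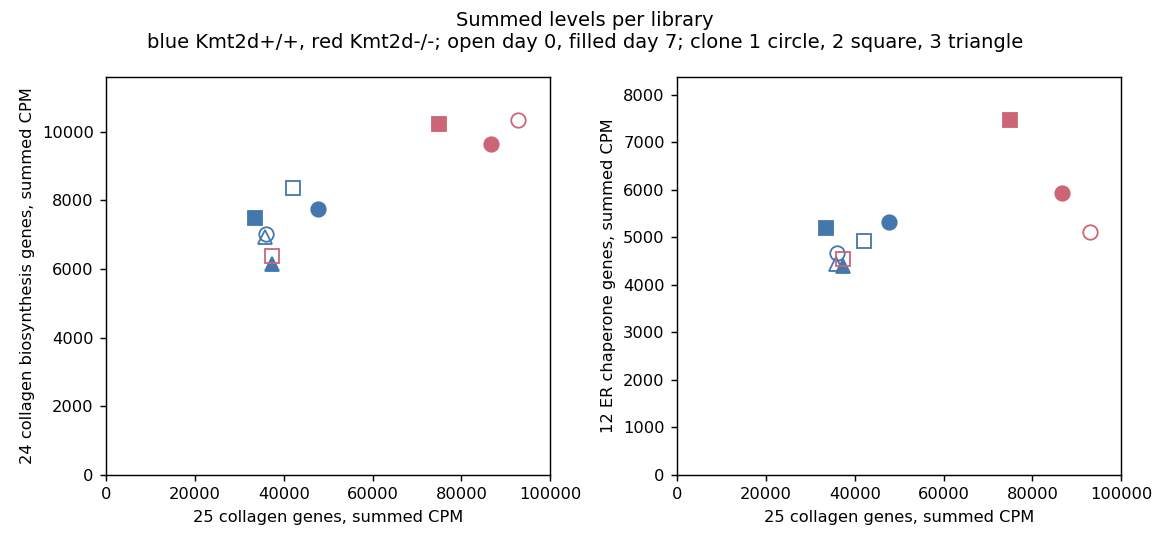
Summed CPM of the 24 collagen-processing genes, and of the 12 ER chaperones, in each library (vertical axes) against the summed CPM of 25 collagen genes (horizontal axis). Colour gives the genotype, open and filled markers give day 0 and day 7, and marker shape gives the clone. The 3 libraries with collagen sums of 75009.8 CPM or more, all Kmt2d-/-, hold 9642 to 10343 CPM of processing genes, and the remaining 7 hold 6141.5 to 8358 CPM.

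Clonal lines can carry regional differences along a chromosome, so each gene was set beside the genes around it. In every library the log2 deviation from the Kmt2d+/+ mean was taken as a running median over 41 tested genes, the gene itself included. Around Dnajb9 (chromosome 12, 44205559 to 44210326, GRCm38) this median was 0.52 to 0.65 in the Kmt2d-/- libraries, and with it subtracted the Dnajb9 difference went from 0.50 to -0.071 at day 7 and from 0.67 to 0.078 at day 0. Around Pdia6 (chromosome 12, 17266545 to 17284770) it was -0.42 to -0.36, and the day 7 difference went from -0.40 to -0.023. These genes differed from Kmt2d+/+ by about as much as their neighbours did.

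Pdia3 (chromosome 2, 121413775 to 121438687) lay in a stretch with a median of 0.23 to 0.37 in the Kmt2d-/- libraries. Its day 7 difference went from 0.85 to 0.56 (edgeR adjusted p = 0.119) and its day 0 difference from 0.50 to 0.17. The Plod2 difference at day 7 went the other way, from 0.95 to 1.19, and passed (edgeR adjusted p = 0.0422). Copy number was not measured.

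**Figure D5:**
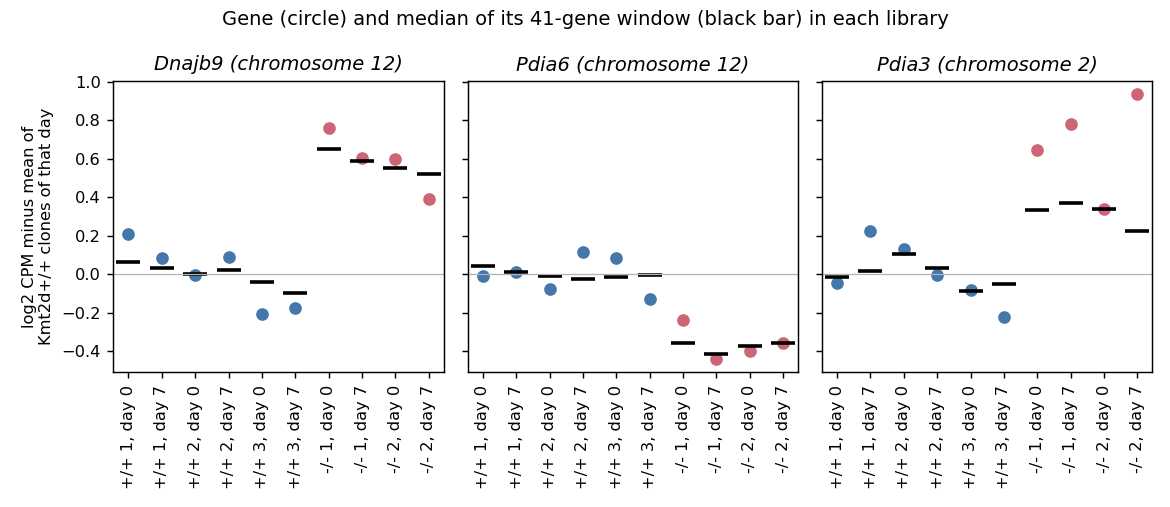
Log2 deviation from the Kmt2d+/+ mean (vertical axis) of Dnajb9, Pdia6 and Pdia3 (circles) and of the 41-gene window around each (bars) in the 10 libraries (horizontal axis). The windows of Dnajb9 lie at 0.52 to 0.65 and those of Pdia6 at -0.42 to -0.36 in Kmt2d-/- libraries, near the genes themselves, while Pdia3 lies above its window in 3 of the 4 Kmt2d-/- libraries and equals it in clone 2 at day 0.

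Other genes of the same pathways were read from lists by role. Of 28 further genes of collagen biosynthesis, 27 were tested. At day 7, 0 passed between genotypes in edgeR and 5 had an unadjusted p under 0.05, against 19.9% of all genes, with a median of 0.13. DESeq2 called 2 (Adamts3 and Colgalt2), against 10.6% of all genes, and limma-voom 1 (Colgalt2), against 3.45%. At day 0, 1 passed as lower: Fkbp11, an ER prolyl isomerase, differed from the Kmt2d+/+ level by -1.92 (SE 0.36, edgeR adjusted p = 0.0356). It did not pass with the clone as a block in limma-voom (adjusted p = 0.0674), nor in edgeR without Kmt2d+/+ clone 1 (0.102) or 3 (0.179) or Kmt2d-/- clone 1 (0.0734) or 2 (0.161). Adamts14, a procollagen N-proteinase, rose from day 0 to day 7 in both genotypes, by 2.35 (SE 0.49, edgeR adjusted p = 0.036) in Kmt2d+/+ and 3.35 (SE 0.64, edgeR adjusted p = 0.0482) in Kmt2d-/-. Without 1 clone its edgeR adjusted p in Kmt2d+/+ was 0.175, 0.044 and 0.259 for Kmt2d+/+ clones 1 to 3 and 0.0523 and 0.0532 for Kmt2d-/- clones 1 and 2. In Kmt2d-/- it was 0.053, 0.0569 and 0.137 and 0.303 and 0.349. With the clone as a block edgeR called 6 of the 27 over time in Kmt2d+/+, against 18.0% of all genes, and 5 in Kmt2d-/-, against 5.57%, with Adamts14 among both.

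Of 29 further genes in the IRE1 and ATF6 arms, 28 were tested. Between genotypes at day 7, 9 had an unadjusted p under 0.05 in edgeR, against 19.9% of all genes. Of the 28, 2 passed as higher in Kmt2d-/- at day 7, where 1.87% of all genes passed in either direction. They were Txndc5, a disulfide isomerase, at 1.55 (SE 0.22, edgeR adjusted p = 0.0206) and Ssr1, a subunit of the translocon-associated protein complex, at 0.97 (SE 0.15, edgeR adjusted p = 0.0263). At day 7 Txndc5 measured 389, 294 and 256 CPM in Kmt2d+/+ against 789 and 1038 CPM in Kmt2d-/-, without overlap. Both lie on chromosome 13, where the running median of neighbouring genes was 0.43 to 0.70 around Txndc5 and 0.44 to 0.80 around Ssr1 in the Kmt2d-/- libraries. With that subtracted, Txndc5 differed by 0.97 (edgeR adjusted p = 0.0467) and Ssr1 by 0.35 (adjusted p = 0.205). Leaving out Kmt2d+/+ clones 1 to 3 and Kmt2d-/- clones 1 and 2 in turn gave edgeR adjusted p-values of 0.0523, 0.049, 0.173, 0.0634 and 0.0831 for Txndc5 and 0.0586, 0.0527, 0.202, 0.123 and 0.118 for Ssr1. Ssr3, of the same complex as Ssr1, rose over time in Kmt2d+/+ by 0.77 (SE 0.15, edgeR adjusted p = 0.0295), with adjusted p-values of 0.143, 0.0669, 0.247, 0.0576 and 0.0547 under the same omissions in edgeR. At day 0, 0 of the 28 passed between genotypes in edgeR and limma-voom, 10 had an unadjusted p under 0.05 in edgeR, against 20.2% of all genes, and DESeq2 called 5, against 11.0%. In Kmt2d-/- over time, 0 passed in edgeR without the block and in limma-voom, 5 had an unadjusted p under 0.05 (14.8% of all genes), DESeq2 called 3 (6.75%), and edgeR with the block called 1, Ssr3 (5.57%).

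Of 20 genes in the PERK and ATF4 arm, 0 passed between genotypes at day 7 in edgeR, 1 had an unadjusted p under 0.05, against 19.9% of all genes, and 6 had a positive difference (median -0.22). DESeq2 called 1 (Atf3, lower), against 10.6% of all genes, and limma-voom 0. Ddit4, a stress-induced inhibitor of mTOR signalling, rose over time in Kmt2d+/+ by 1.41 (SE 0.33, edgeR adjusted p = 0.0451), with adjusted p-values of 0.267, 0.0614, 0.33, 0.0301 and 0.0302 in edgeR when Kmt2d+/+ clones 1 to 3 and Kmt2d-/- clones 1 and 2 were left out in turn. Of 20 hypoxia targets, 0 passed between genotypes at day 7 in edgeR and 4 had an unadjusted p under 0.05, against 19.9% of all genes, with a median of 0.29. DESeq2 called 3, against 10.6% of all genes, and limma-voom 1 (Egln3), against 3.45%. P4ha1, P4ha2, Plod2 and Lox are also known as hypoxia targets and are counted among the 40 only. Bnip3, a mitophagy receptor, rose over time in Kmt2d+/+ by 1.44 (SE 0.27, edgeR adjusted p = 0.0273), and its adjusted p-values were 0.195, 0.0567, 0.199, 0.0429 and 0.042 under the same omissions. Car9, a carbonic anhydrase, also passed in that contrast, and since it had 0 counts in 1 library no fold is given. With the clone as a block, edgeR called 4 hypoxia targets as higher over time in Kmt2d+/+ (Bnip3, Car9, Egln3 and Pfkfb4), against 18.0% of all genes in either direction, and 2 in Kmt2d-/- (Egln3 and Slc2a1), against 5.57%, and it called Ddit4 in both genotypes.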

How the data were processed

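The deposited table held gene-level estimated counts for 27911 Ensembl genes, not normalized, in 20 columns, which are 10 libraries each run on 2 flow cells. The authors used GRCm38, Salmon, DESeq2, limma and edgeR, per the submitters' processing notes. Versions, transcript annotation and strand setting were not given in the sources used here, so reads of overlapping or antisense genes cannot be told apart, and estimated counts of near-identical copies are uncertain. Of the nonzero deposited values, 0.351% lay within 0.001 of a whole number. The 2 runs of a library (r = 0.995 to 0.997 across genes) were summed and rounded, giving 35792773 to 66237188 counts. A floor of 3 counts equals 0.0838 CPM in the shallowest library. Intervals and floors cover counting error or the spread between clones only. Symbols and coordinates came from GENCODE vM21 (411 IDs had none, and 2 listed genes were matched by a synonym).

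In R 4.3.3, edgeR 4.0.16 was fitted to all 10 libraries as 4 groups after filterByExpr (15467 genes) and TMM scaling, with 6 residual degrees of freedom and a biological coefficient of variation of 0.385. Quasi-likelihood F tests gave 5 comparisons: genotype at either day, day in either genotype, and how far the day effects of the genotypes differed. P-values were adjusted by Benjamini-Hochberg over all tested genes, with a threshold of 0.05. The test was also run on simulated counts, but with a smaller spread than these data have and with independent libraries. That run therefore does not show how the test performs here. The same clone was sampled at both days, and deviations from the group means correlated between days by 0.363, 0.571 and 0.432 in Kmt2d+/+ clones 1 to 3 and by 0.463 in the Kmt2d-/- clones, so the clone number pairs the libraries. The fit with the clone as a block is given beside results where it changed a call. For the genotype contrasts it used limma-voom with duplicateCorrelation.

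The 40 genes and the other lists were chosen with earlier results of these data known. The text names every one of the 40, gives in each comparison those that passed and, in each role, the most abundant and the most changed, and names from other lists up to 4 passing genes. Other genes named were chosen after their values were seen. Alternatives were DESeq2 1.42.0, limma-voom (limma 3.58.1), DESeq2 size factors in edgeR, no filter, fits of only the groups compared, either flow-cell run alone, each clone left out, the clone block and a regional offset. CPM per kb used merged exon length. Promoter windows came from RefSeq (GRCm38.p6).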

Additional observations from a re-analysis of the deposited data

How the results depend on the processing

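For 200 gene-by-comparison results, 2640 log2 values were recomputed over 15 settings. Of these, 0 reversed a call, 40 moved past the threshold and 8 fell back from it. A further 141 changed sign with no call in either fit, and 2451 kept both sign and call, whatever the size of the shift. Of the 40 genes, 0 passed between genotypes at day 7 in edgeR, 5 passed in DESeq2, and 1 each in limma-voom, in flow-cell run 1 alone and with the regional offset. At day 0 the count was 0, and 4 in DESeq2. Over time in Kmt2d+/+ it was 0, with 3 in DESeq2, 1 with only the groups compared and 3 with the clone as a replicate block. In Kmt2d-/- it was 1, with 7 in DESeq2, 3 in limma-voom, 3 in run 1 alone, 0 in run 2 alone, 0 with only the groups compared and 5 with the replicate block. In limma-voom the replicate block took the day 7 genotype count from 1 (Pdia3) to 0. For the other comparisons the pairing by clone changed no further count among the 40 genes. Without one clone at a time, the counts ranged from 0 to 1 for genotype at day 7, 0 to 2 at day 0, 0 to 1 over time in Kmt2d+/+ and 0 to 0 over time in Kmt2d-/-, each such fit holding fewer libraries.

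Over all genes, the 290 calls for genotype at day 7 became 1605 in DESeq2, 533 in limma-voom, 184 in run 2 alone, 55 with only the groups compared, 442 with the replicate block and 10 to 272 without one clone, the lowest without Kmt2d+/+ clone 3. The 332 at day 0 became 1632 in DESeq2, 9 with only the groups compared, 193 with the replicate block, 186 with the regional offset and 10 to 912 without one clone. The 786 over time in Kmt2d+/+ became 2280 in DESeq2, 2789 with the replicate block and 0 to 862 without one clone. The 196 in Kmt2d-/- became 999 in DESeq2, 131 in run 2 alone, 0 with only the groups compared, 862 with the replicate block and 0 to 183 without one clone. For the difference of the day effects, 0 became 27 in DESeq2. The cause of these changes in count was not tested. The low counts of Loxl2 limit its values.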
